A study of Mus musculus with 4 samples.

Results

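The CpG sites described here lie in 4 windows of 1 kb and their surroundings in the mouse genome (build mm9), at Brd3 (chr2:27351001-27352000), near Tlx1 (chr19:45266001-45267000), at Camta1 (chr4:150518001-150519000) and near F11r (chr1:173413001-173414000). The windows were chosen by their loss of DNA methylation in Chr4-cl KO against WT ES cells in 2i + Vitamin C, among 24424 windows of 1 kb that held at least 5 CpG sites covered by 10 or more reads in every library. The difference in 2i + Vitamin C is therefore given as a description with no test. With 10 kb on both sides and 1 kb around the most upstream start of each gene, 325 CpG sites had at least 10 reads in any library. Of these, 138 had them in all libraries, and the genome held 981048 and 400195 such sites. The most upstream starts of Brd3 and Tlx1 added no site. The sites at other starts of these genes, described below, are not in these counts.

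The series measured CpG methylation by reduced representation bisulfite sequencing (RRBS-seq), in which MspI cuts the DNA at CCGG and bisulfite converts unmethylated cytosines, in 4 libraries of ES cells. The groups were WT and Chr4-cl KO cells grown in serum-containing medium and WT and Chr4-cl KO cells kept for 1 week in 2i + Vitamin C (2i/VitC), with 1 library each and no replicates. Per the study's methods, the KO was made with a pair of CRISPR guides around a KRAB-ZFP gene cluster on chromosome 4, in ES cells derived from mice of mixed B6;129 background with a Cre-ERT allele at the ROSA26 locus, and individual KO and WT clones were picked. The sources used here do not say how many clones went into each library, so the effect of the deletion, of a clone and of its strain alleles cannot be told apart.

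KRAB-ZFPs are DNA-binding repressors that recruit KAP1 to transposable elements, where H3K9me3 and DNA methylation are laid down. In serum, ES cells are heavily methylated outside CpG islands. The kinase inhibitors of 2i medium lower DNA methyltransferase activity, and Vitamin C promotes TET enzymes, so the genome loses much of its methylation. Sequences bound by KRAB-ZFPs are known as places where methylation can persist through this loss.

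The genes named here have unrelated roles. Brd3 encodes a BET bromodomain protein that reads acetylated histones. Tlx1 encodes a homeobox transcription factor needed for spleen development. Camta1 encodes a calmodulin-binding transcription activator expressed mainly in brain. F11r encodes junctional adhesion molecule A of epithelial tight junctions. In the GENCODE vM1 annotation on mm9, the Brd3 window lay in an intron of 1 of 10 Brd3 transcripts (gene at chr2:27301099-27363182, minus strand). The Camta1 window lay wholly within a coding exon of 1853 bp (chr4:150517825-150519677) that 6 of 15 Camta1 transcripts share. The Tlx1 window lay 34.57 kb beyond the 3′ end of Tlx1 (chr19:45223726-45231433, plus strand), and the F11r window 18.27 kb beyond the 3′ end of F11r (chr1:173367666-173394734, plus strand). No annotated gene came within 10 kb of the windows near Tlx1 and F11r, so their names give the gene they were listed under and not a gene they are part of.

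The sequences that carried most of the covered sites of 3 windows are shown because RRBS-seq reads a window only through a few MspI fragments. Each is read from mm9, plus strand, and capitals mark the CpG sites that had 10 or more reads in all 4 libraries. The Brd3 stretch is chr2:27351331-27351549, the Tlx1 stretch chr19:45266348-45266508 and the Camta1 stretch chr4:150518229-150518291.
Brd3 window: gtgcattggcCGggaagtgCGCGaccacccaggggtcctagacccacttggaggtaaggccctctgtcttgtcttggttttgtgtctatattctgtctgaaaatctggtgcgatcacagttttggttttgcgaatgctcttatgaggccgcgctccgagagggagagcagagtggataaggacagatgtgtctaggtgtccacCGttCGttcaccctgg
Tlx1 window: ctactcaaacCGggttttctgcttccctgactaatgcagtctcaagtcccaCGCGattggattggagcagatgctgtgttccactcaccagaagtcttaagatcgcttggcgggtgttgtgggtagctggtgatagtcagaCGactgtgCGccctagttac
Camta1 window: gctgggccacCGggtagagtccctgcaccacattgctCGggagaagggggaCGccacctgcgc

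Within 10 kb, 3 of the 4 windows had a direct repeat pair, defined as same-strand copies of at least 300 bp and 90% identity whose starts lay 1500 to 10000 bp apart. This is the arrangement of the paired long terminal repeats (LTRs) of an endogenous retrovirus, and 5.45% of all windows had such a pair. This share and those below are over all windows, whose median methylation in WT cells grown in serum was 2.25%. The 4 windows read 85.9% to 95.9% there. Shares among windows of like methylation were not computed, so no link to the loss is read from these matches. At F11r, copies of 532 bp with 100% identity ran from -1725 to -1194 and from 6414 to 6945 bp, counted from the first base of the window, so that the window lay between them. Both copies matched the study's capture probes for RLTR4 at 95% identity, and 0.188% of all windows had an RLTR4 probe match within 10 kb. At Brd3, copies of 563 bp with 94.7% identity ran from -262 to 300 bp and from 7338 to 7900 bp, so the first copy reached into the window. At Tlx1, copies of 338 bp with 99.7% identity ran from -4975 to -4638 and from -1599 to -1263 bp, both before the window. Camta1 had no such pair, and an ETn capture probe sequence (RLTRETN) matched from 3167 to 3325 bp. Such a match lay within 10 kb of 0.954% of all windows.

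The study tested 20 oligos as KRAB-ZFP target sites in reporter assays, 10 of them for KRAB-ZFPs of the deleted Chr4-cl. Matches were taken over at least 65% of an oligo at 85% identity or more. At F11r, the target oligo of the Chr4-cl protein Gm30910 in MMERGLN matched at chr1:173412975-173413013, from -26 to 12 bp, so it ran across the start of the window. At Tlx1, the target oligo of the Chr4-cl protein Gm21082 in IAPLTR1 matched at chr19:45261139-45261167, within the first of the repeated copies. No such match lay within 10 kb of the Brd3 and Camta1 windows. A match to a Chr4-cl oligo lay within 10 kb of 4.17% of all windows, and a match to the Gm30910 oligo within 10 kb of 0.151%. The F11r region also matched the proline primer binding site oligo of Zfp809 over 18 of 18 aligned bases, and the Tlx1 region matched the ORR1A2 oligo of the Chr8-cl protein Zfp617. Matches to the Gm21082, Zfp809 and Zfp617 oligos lay within 10 kb of 1.85%, 0.848% and 15.3% of all windows, so that to Zfp617 is common. The matched part of each Chr4-cl oligo and its copy are shown so that they can be compared, and capitals in the copy mark bases that differ from the oligo.
Gm30910 oligo: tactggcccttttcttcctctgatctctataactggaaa
F11r copy: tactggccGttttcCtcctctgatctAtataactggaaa
Gm21082 oligo: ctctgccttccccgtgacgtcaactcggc
Tlx1 copy: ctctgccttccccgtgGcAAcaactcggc

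The deletion was seen in the reads. Between the matches of the Chr4-cl guides (chr4:144973817-147227521), the WT libraries had 1216 RPM (reads scaled to library size) in serum and 1160 in 2i/VitC, and the KO libraries 9.28 and 34.4. None of the 4 windows lies in this interval. Summed over CpG sites, the read counts lay between 42684672, in KO cells in 2i/VitC, and 90649194, in WT cells in 2i/VitC. A read that covers several sites is counted at each, so these sums are not numbers of sequenced reads. Over the 400195 sites covered in all libraries, the mean of the sites was 27.4% in WT and 30.5% in KO cells grown in serum, and 13.9% and 12.2% in 2i/VitC. Pooled over reads, as for the windows, it was 17.5% and 16.8% in serum and 9.19% and 9.30% in 2i/VitC, so the direction between the genotypes turned in both media.

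In 2i/VitC, the sites of the 4 windows covered in all libraries held far more methylation in WT than in KO cells. At F11r these sites lay on 1 fragment. A site at 605 bp on another fragment read 81.8% of 11 reads in WT and 88.0% of 50 reads in KO cells. Pooled over the sites covered in all libraries, methylation in WT cells was 52.9% of 1258 reads at Brd3, 62.9% of 291 reads at Tlx1, 53.2% of 218 reads at Camta1 and 77.8% of 523 reads at F11r. The median of all windows was 2.49% in WT and 1.51% in KO cells. In KO cells it was 8.77% of 1061 reads at Brd3, 17.2% of 389 at Tlx1, 7.14% of 98 at Camta1 and 11% of 100 at F11r. The windows chosen on this contrast thus differed by -44.2 percentage points at Brd3 (95% Newcombe interval -47.3 to -40.9), -45.7 at Tlx1 (-52.0 to -38.7), -46.1 at Camta1 (-53.5 to -36.5) and -66.8 at F11r (-72.6 to -58.3). Intervals cover the counting of reads only. CpG sites on 1 fragment share reads, and a shared read is counted at each site. The pooled numbers of reads are therefore not numbers of molecules, and the intervals are narrower than independent molecules would give.

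**Figure D1:**
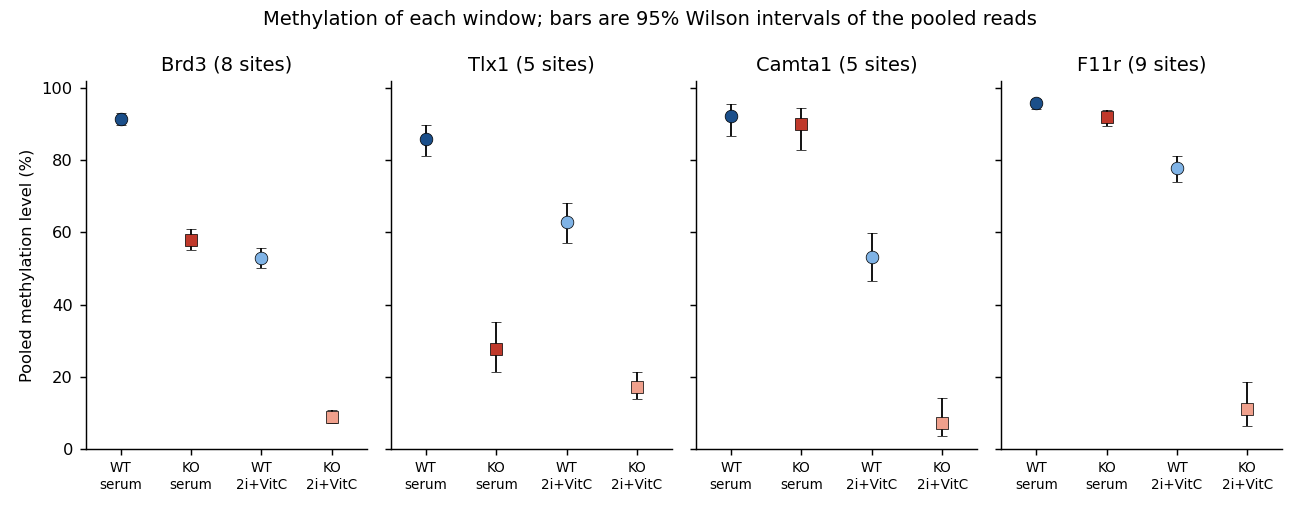
Pooled methylation level (%) of each window in the 4 libraries, over the 8, 5, 5 and 9 CpG sites with at least 10 reads in all of them. Bars are 95% Wilson intervals of the pooled reads. In KO cells in 2i/VitC every window was between 7.14% and 17.2%, and in KO cells grown in serum the windows at Brd3 and Tlx1 were below WT while those at Camta1 and F11r were close to it.

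By loss in 2i/VitC the F11r window ranked 1st, Camta1 5th, Tlx1 6th and Brd3 7th of the 24424 windows. The rank of F11r rests on 9 sites of 1 fragment, with a median of 11 reads per site in KO cells in 2i/VitC. Over all sites covered in both 2i/VitC libraries its difference was -40.8 points, and the ranks were not computed again over such sites. The windows ranked between F11r and Camta1 were chr1:60848001-60849000, chrX:36302001-36303000 and chr8:59285001-59286000, with -66.7, -59.1 and -55.2 points. The window just after Brd3, chr15:72640001-72641000, differed by -43.0 points. A loss of at least 20 points in 2i/VitC, with no test, was seen in 0.68% of all windows. Those windows had a median of 27.8 reads per site in KO cells in 2i/VitC, against 49.4 over all windows.

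In serum, which was not used to rank the windows, they fell into 2 pairs. Methylation fell in KO cells at Tlx1, from 85.9% of 256 reads to 27.6% of 156 reads, a difference of -58.4 points (interval -65.8 to -49.5). It also fell at Brd3, from 91.6% of 1031 reads to 58.0% of 1089 reads, a difference of -33.5 points (-36.9 to -30.1). Fisher's exact test on the reads, with Benjamini-Hochberg adjustment over all 24424 windows, gave an adjusted p of 1.03e-31 and 2.70e-72. Among all windows these were the 2nd and 20th largest losses in serum, and 0.176% of all windows were called lower, with an adjusted p under 0.05 and a loss of at least 20 points. With 1 site per MspI fragment, an alternative added after seeing the data, the adjusted p was 2.51e-05 at Tlx1 and 2.06e-29 at Brd3. The deepest site of each fragment was kept, which changed the differences to -56.7 points at Tlx1 and -51.4 at Brd3. At Brd3 the kept sites include that at 533 bp, which had the largest serum loss of the window, so this p depends on the sites kept.

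At Camta1, methylation in serum was 92.2% of 142 reads in WT and 90.1% of 101 reads in KO cells. The difference of -2.15 points (interval -10.3 to 4.98) had an adjusted p of 0.758 by Fisher's exact test, and its interval holds 0. At F11r it was 95.9% of 919 reads and 92.0% of 562 reads. That difference of -3.87 points (-6.64 to -1.40) had an adjusted p of 0.007 by Fisher's exact test on all reads and of 0.92 with 1 site per MspI fragment. All of these tests compare the 2 libraries and not the conditions, since each condition had 1 library.

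**Figure D2:**
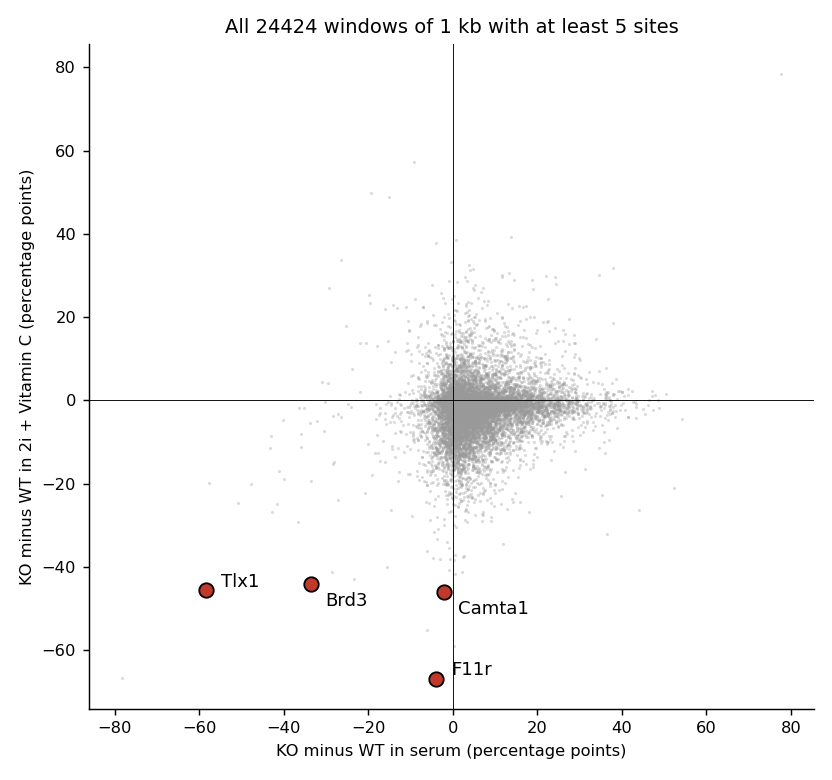
Difference in methylation, KO minus WT in percentage points, of all 24424 windows in serum (x axis) and in 2i/VitC (y axis), with the 4 chosen windows in red. Tlx1 and Brd3 lie far to the left, at -58.4 and -33.5 points in serum, and Camta1 and F11r lie near 0 on the x axis, at -2.15 and -3.87 points.

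The effect of the medium can be read within each genotype from the same values. From serum to 2i/VitC the WT libraries differed by -38.6 points at Brd3, -23.0 at Tlx1, -39.0 at Camta1 and -18.0 at F11r. The KO libraries differed by -49.3, -10.3, -83.0 and -81.0 points in the same order. Over the sites covered in all libraries, most of the methylation at Tlx1 was already missing in KO cells grown in serum. At Camta1 and F11r, nearly all of the methylation of such sites was present in KO cells in serum and missing in 2i/VitC. Brd3 lay between these patterns. At F11r these sites lay on 1 fragment. On another fragment of that window, 3 sites read 77.7% of 103 reads in KO cells in 2i/VitC. Both 2i/VitC libraries entered the choice of the windows, so these differences were not tested.

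The 8 covered sites of the Brd3 window were not equal. The 5 sites of the fragment shown above, from 340 to 537 bp after the first base of the window, had 186 to 237 reads per site in every library. The site at 537 bp, which had the largest difference in 2i/VitC in this window, was 89.5% methylated in WT and 44.1% in KO cells grown in serum, and 51.5% and 0.943% in 2i/VitC. The site at 533 bp read 91.0% and 39.3% in serum and 42.6% and 1.39% in 2i/VitC. Both sites fell in serum, by -45.4 and -51.7 points (adjusted p = 4.68e-20 and 8.80e-26, Fisher's exact test over 588613 sites).

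Other sites of this fragment kept more methylation. The site at 349 bp was 95.2% in WT and 79.5% in KO cells grown in serum, a difference of -15.7 points (Fisher's exact test, adjusted p = 1.71e-04), and 70.0% and 20.2% in 2i/VitC. It is 2 bases from the site at 351 bp, which read 92.1% and 69.0% in serum and 56.8% and 10.4% in 2i/VitC. Sites on 1 fragment of 222 bp thus kept different levels within the KO library, from 0.943% to 20.2%.

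The other 3 covered sites of the Brd3 window lay in the repeated copy. The site at 166 bp had the smallest difference of the window in 2i/VitC, with 66.7% of 24 reads in WT and 47.6% of 21 reads in KO cells, and was 100% methylated in both genotypes in serum. Those at 139 and 296 bp were 50% of 14 reads and 54.5% of 11 reads in KO cells grown in serum, against 93.5% and 100% in WT cells. The copies are 94.7% identical, and how reads that map to both were placed is not given in the sources used here.

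All 5 covered sites of the Tlx1 window lay on 1 fragment, with 31 to 79 reads each. The site at 400 bp had the largest difference in 2i/VitC, from 72.4% of 58 reads in WT to 13.9% of 79 reads in KO cells. Its methylation fell in serum from 92.3% of 52 reads to 25.8% of 31 reads (Fisher's exact test, adjusted p = 7.70e-08). The smallest difference was at 357 bp, with 44.6% and 7.89% in 2i/VitC and 76.1% and 21.9% in serum (Fisher's exact test, adjusted p = 1.98e-04). A further site at 773 bp, on another fragment, was 75.0% of 16 reads in WT and 75.7% of 37 reads in KO cells grown in serum and 76.0% of 50 reads in WT cells in 2i/VitC. It had 1 read in KO cells in 2i/VitC, so the loss has a measured edge only in serum.

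The 5 covered sites of the Camta1 window lay on 2 fragments, at 238 to 279 bp and at 944 to 987 bp, with 13 to 59 reads each. The site at 279 bp was 65.5% of 58 reads in WT and 11.8% of 17 reads in KO cells in 2i/VitC, and 97.3% and 90.9% in serum. The site at 238 bp, with the smallest difference, was 40.0% and 6.25% in 2i/VitC and 87.5% and 84.2% in serum. At 987 bp none of 25 reads was methylated in KO cells in 2i/VitC, against 39.3% of 28 reads in WT cells, while in serum the KO library read 100% of 25 reads. No site of this window was called in serum.

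The F11r window, first by its loss, had the fewest reads per site in KO cells in 2i/VitC of the 4 windows. Its 9 covered sites, from 183 to 326 bp, lay on 1 fragment of 157 bp with a median of 101 and 63 reads per site in serum, 59 in WT and 11 in KO cells in 2i/VitC. The site at 326 bp was 98.1% and 98.4% in serum, 86.2% of 58 reads in WT and 10% of 10 reads in KO cells in 2i/VitC. The smallest difference was at 193 bp, with 89.8% of 59 reads and 33.3% of 12 reads. A site at 605 bp, on another fragment of the same window, was 81.8% of 11 reads in WT and 88.0% of 50 reads in KO cells in 2i/VitC. Over all sites covered in both 2i/VitC libraries the difference of this window was -40.8 points in place of -66.8.

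**Figure D3:**
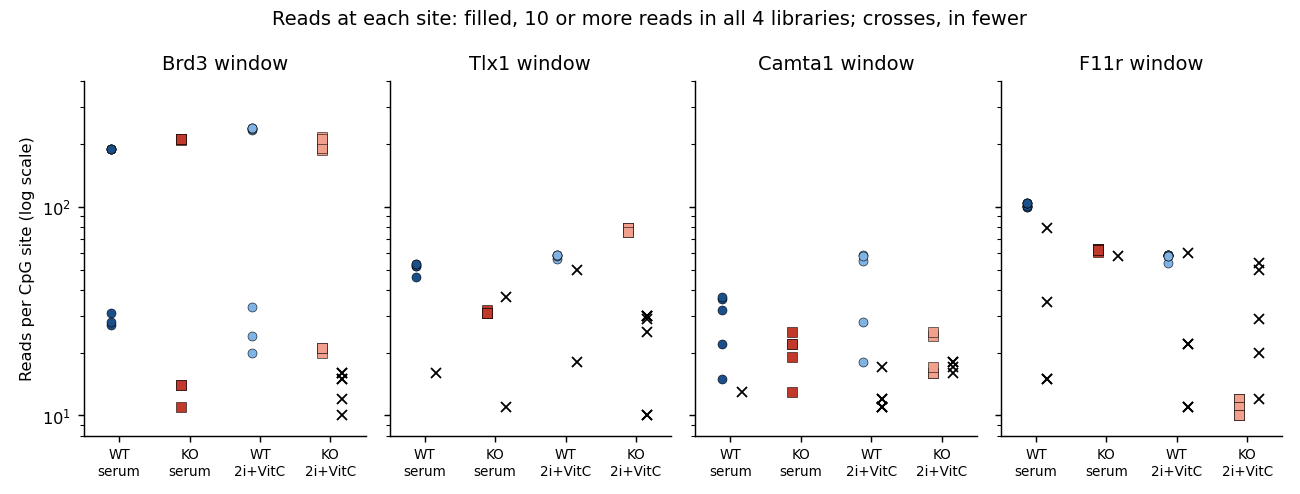
Reads per CpG site (log scale) in each library for the 4 windows. Filled points are sites with 10 or more reads in all libraries and crosses are sites that reached 10 reads in fewer. The filled points of the F11r window in KO cells in 2i/VitC sit at 10 to 12 reads, against 186 to 216 for the 5 deepest sites of the Brd3 window.

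**Figure D4:**
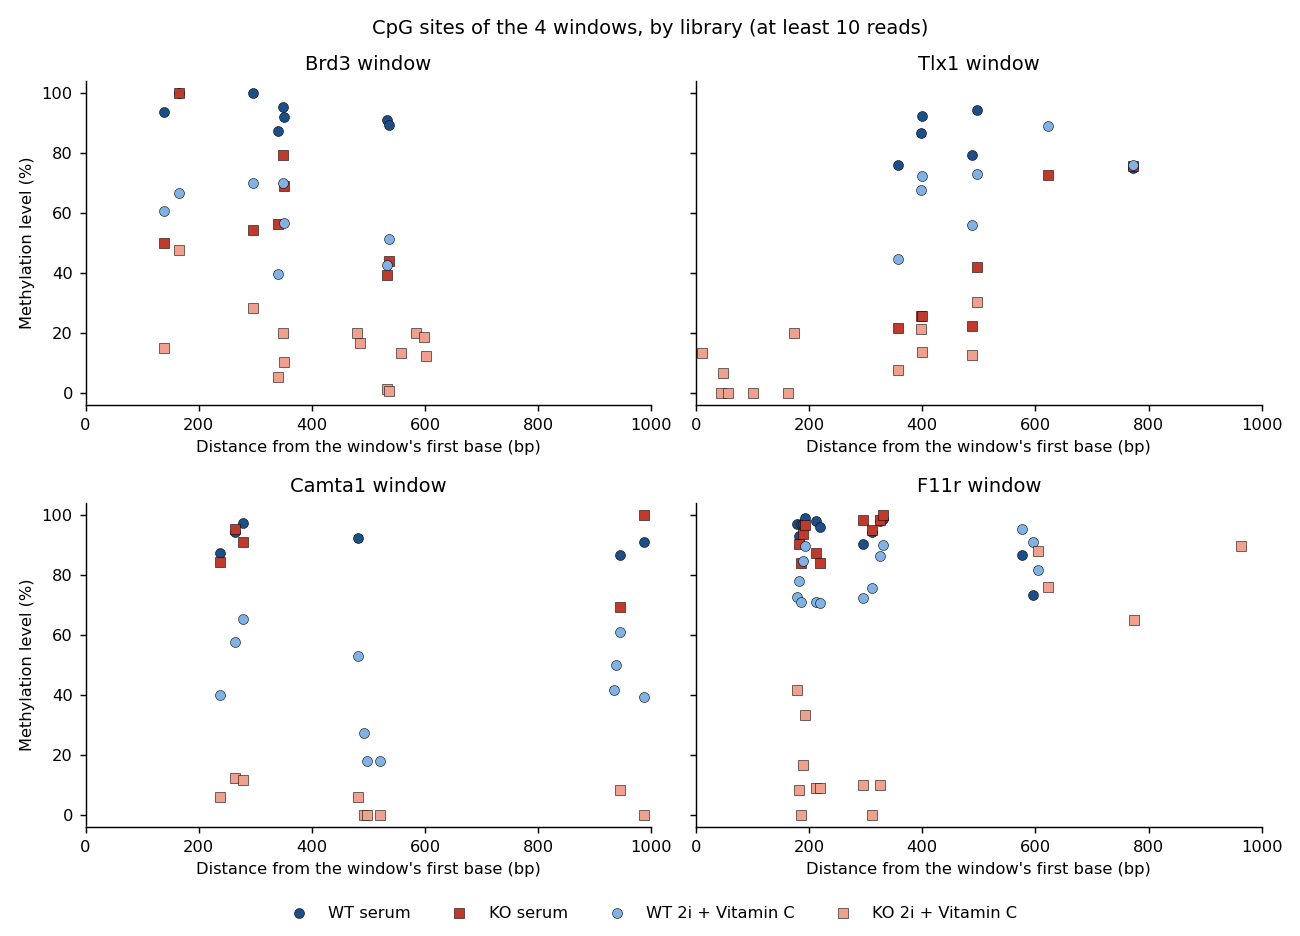
Methylation level (%) of each CpG site with at least 10 reads against its distance in bp from the first base of the window, with 1 point per site and library. KO cells in 2i/VitC were the lowest of the 4 libraries at each of the 27 window sites covered in all of them. The windows were chosen by their loss in that library over these sites, so nothing is read from this count. At F11r the sites from 605 bp on read 65% to 89.7% in KO cells in 2i/VitC.

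Of 106 sites in the windows and flanks with 10 reads in both 2i/VitC libraries, 63 were lower by at least 20 points and 1 was higher. The 33 window sites among them, 29 of them lower, were chosen by this loss, so nothing is read from that count. Over all 458443 such sites in the genome, 3.4% were lower and 1.47% higher by that much, and the median was -0.739 points. Only a site with at least 20% methylation in WT cells can fall by 20 points. In WT cells in 2i/VitC, the mean over the sites covered in all libraries was 13.9%. Pooled over such sites, the flanks read 48.6% at Brd3, 75.8% at Tlx1, 27.0% and 58.9% at Camta1, and 60.95% and 79.2% at F11r. The share over the genome is thus not for sites of like methylation. In the flanks alone, which adjoin the chosen windows, 34 of 73 sites were lower by at least 20 points and 1 was higher. Their medians were -26.6 at Brd3, -34.3 at Tlx1, -28.0 at Camta1 and -10.7 at F11r. Not all of these sites were apart from the windows. At Camta1, the flank sites at 1026, 1032 and 1044 bp lay on 1 fragment with window sites and share reads with them. In serum, 15 of 139 sites were called lower and 0 were called higher (at least 20 points, adjusted p under 0.05, Fisher's exact test), against 0.115% and 1.82% of all 588613 sites. Sites of like methylation were not compared in serum either. The mean over the sites covered in all libraries was 27.4% in WT cells grown in serum. Without the test, 19 sites were lower and 0 higher by 20 points. All 15 were at Brd3 and Tlx1, with 7 of 18 and 8 of 10 sites.

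At Tlx1, 4 flank sites on 1 fragment, from -268 to -72 bp, had between 220 and 431 reads in every library. Their pooled methylation was 89.0% in WT and 59.3% in KO cells grown in serum, and 75.8% and 44.1% in 2i/VitC. The differences of -29.7 and -31.8 points were smaller than those of the fragment within the window. The site at -268 bp read 84.9% and 53.2% in serum (Fisher's exact test, adjusted p = 4.83e-18) and 67.7% and 30.2% in 2i/VitC. The site at -223 bp, the smallest difference of the flank, read 92.8% and 73.7% in serum (Fisher's exact test, adjusted p = 3.21e-10) and 80.7% and 58.9% in 2i/VitC. Further out, 4 sites from -1286 to -1272 bp, inside the second repeated copy, were 90.9% to 100% methylated in WT cells in both media and had 4 reads each in both KO libraries.

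At Brd3, 7 flank sites between 3793 and 5680 bp were covered in all libraries. The site at 3793 bp had the smallest difference in 2i/VitC, 12.1% in WT and 4% in KO cells, and was one of those called in serum, with 50% of 40 reads and 13.3% of 30 reads (Fisher's exact test, adjusted p = 0.0454). The site at 5680 bp had the largest, from 65.5% of 58 reads to 14.3% of 14 reads, and in serum it read 96.3% of 27 reads and 88.2% of 76 reads (Fisher's exact test, adjusted p = 1). Within this locus the loss in serum was thus called in the window and at 3793 bp, while no single site from 5580 to 5680 bp was called. Pooled over these 5 sites, the difference in serum was -6.14 points (interval -10.4 to -0.731).

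At Camta1, the differences in 2i/VitC were large after the window and smaller before it. The 12 right flank sites covered in all libraries, from 1026 to 7976 bp, read 58.9% in WT and 21.8% in KO cells in 2i/VitC, and 94.9% and 94.9% in serum, a serum difference of 0.0256 points (interval -2.69 to 3.05). Those from 1026 to 1044 bp lay on a fragment that also held sites of the chosen window. Among these 12 sites the largest difference was at 7976 bp, with 52.2% of 23 reads and 6.67% of 30 reads, beyond the ETn probe match. The smallest of the 12 was at 1354 bp, with 54.3% of 46 reads and 24.3% of 70 reads. Before the window, the site at -1417 bp had the largest difference, 48.0% and 27.3%. The site at -2012 bp was 0.787% of 127 reads and 1.05% of 95 reads in 2i/VitC, and 10% and 12.8% in serum, so its methylation was low in every library.

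At F11r, the pooled differences in 2i/VitC outside the window were smaller, though the right flank site at 2801 bp differed by -82.9 points. The 7 left flank sites covered in all libraries read 60.9% in WT and 48.4% in KO cells in 2i/VitC, and 91.4% and 93.4% in serum. Those from -1307 to -1206 bp lay within the copy that is repeated with 100% identity from 6414 bp. The site at -1275 bp had the largest difference of this flank in 2i/VitC, 63.1% and 31.4%, and that at -1307 bp the smallest, 72.9% and 69.6%.

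On the other side of the F11r window, 23 sites covered in all libraries were 79.2% and 64.2% in 2i/VitC, a difference of -15.0 points that rested largely on 1 site. Without the site at 2801 bp, an alternative chosen after seeing the data, they were 78.8% and 74.7%, a difference of -4.11 points. This site stood out, with 89.6% of 96 reads in WT and 6.71% of 745 reads in KO cells. Its neighbours at 2792, 2820 and 2823 bp read 72.9%, 75.0% and 81.4% in the same KO library, from 738 to 747 reads. The site at 2886 bp had 13 reads there, while those at 2888 and 2904 bp had 734 and 750. Whether the value at 2801 bp reflects methylation was not tested. In serum the site at 2801 bp was 91.5% in WT and 95.1% in KO cells (Fisher's exact test, adjusted p = 1). The smallest difference was at 1993 bp, with 66.7% in both genotypes. No site of the F11r window or flanks was called in serum.

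**Figure D5:**
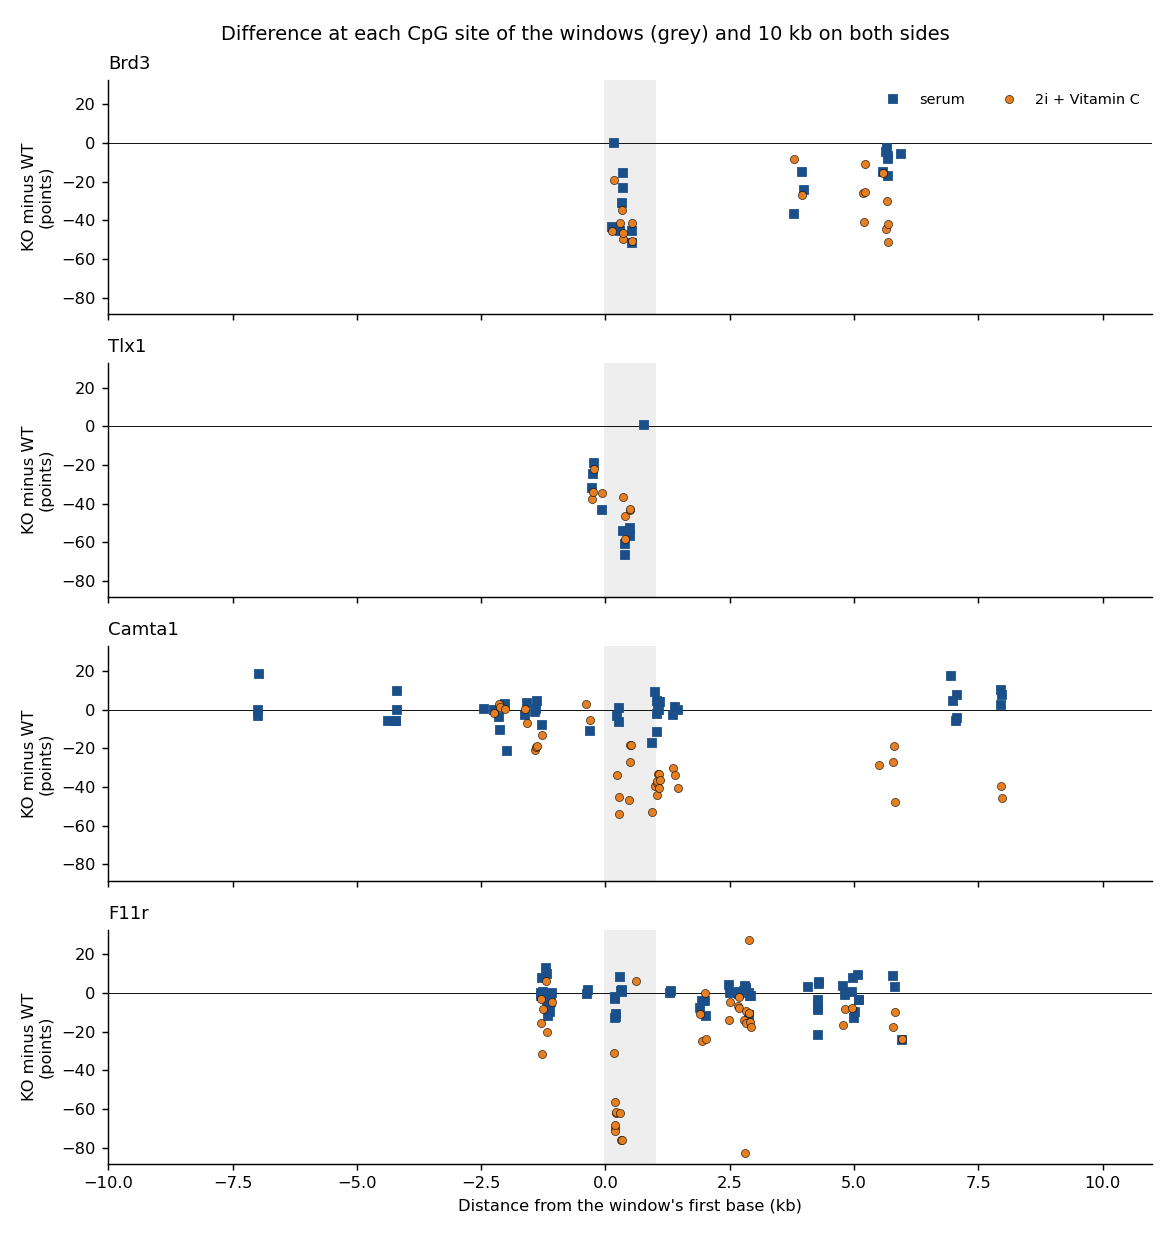
Difference in methylation, KO minus WT in percentage points, at each CpG site with at least 10 reads in both libraries of a medium, against its distance in kb from the first base of the window (grey band, 1 kb). At Brd3 and Tlx1 the serum points (squares) in the window lie below 0 with the 2i/VitC points (circles), apart from 1 site each near 0. At Camta1 and F11r the serum points scatter around 0.

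The 5′ ends of these genes differed by transcript. Around the most upstream start of Camta1, 31 sites read 1.07% in WT and 1.12% in KO cells grown in serum and 1.49% and 1.22% in 2i/VitC. Around that of F11r, 16 sites read 1.58% and 2.30% in serum and 0.713% and 0.786% in 2i/VitC. At Brd3 no site within 1 kb of the most upstream start had 10 reads in any library. At the start of Brd3-001, 52 sites read 1.14% and 1.82% in serum and 2.10% and 1.14% in 2i/VitC. At Tlx1 likewise no site near the most upstream start was covered, and 14 sites near the start of Tlx1-002 read 12.03% and 14.7% in serum and 4.07% and 3.67% in 2i/VitC. Starts inside Camta1 held more methylation, with 61.1% and 65.1% over 19 sites at Camta1-012 and 93.2% and 94.4% over 3 sites at Camta1-202 in serum. No site at any of these starts was called lower or higher in serum, against 0.115% and 1.82% of all 588613 sites. The tested sites numbered 40 at the most upstream start of Camta1, 21 at F11r, 63 at Brd3 and 18 at Tlx1. A further 25 were tested at Camta1-012 and 3 at Camta1-202. At those shares few calls would be met among so few sites, so their absence says little about these starts. No RNA was measured in these libraries, so the expression of the 4 genes is not described.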

How the data were processed

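CpG methylation was measured in 4 ES cell libraries, 1 for each genotype and medium. The authors used Trim Galore on paired-end reads of 50 bp, aligned to mm9 by Bismark, and joined both strands of each CpG dyad. Versions and the placing of reads that map to several positions are not given in the sources used here. Per the deposited files, each site has read counts, methylated counts and a fraction. The fraction was recomputed from the counts. Every one of the 981048 sites with 10 reads in any library fell on a CG of mm9. In 2 files a second table was appended, with 1161870 and 1575598 rows, of which 59 and 54 reached 10 reads. These rows were joined to the first table, and the rows that share a position (332 and 830) were left out.

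Sites needed at least 10 reads, the minimum of the study. Reads were pooled over the sites of a window, so a read that covers several sites was counted at each of them. Serum libraries were compared by a two-sided Fisher's exact test per site and per window with Benjamini-Hochberg adjustment over all sites or windows. The test and the adjustment were computed by custom code, whose values were compared with those of scipy 1.17.1. The test per site was checked on simulated independent reads. That check does not cover the test per window, reads shared between sites or differences between clones. Wilson and Newcombe intervals (95%) cover counting error only. Repeats, oligos and probes were matched with blastn 2.17.0. Groups came from the labels. Named sites were, in each window and flank, those with the largest and smallest difference in 2i + Vitamin C, and other sites named were chosen after their values were seen. The members and lists were chosen with earlier results of these data known. Alternatives were the coverage minimum, the set of sites, thinning, window width, size of change and transcript start. The summary over the paralogues of the 4 genes is not reported here.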

Additional observations from a re-analysis of the deposited data

Results flagged for a closer look

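Some sites of the windows had 10 or more reads in KO cells in 2i/VitC alone and entered no comparison. At Brd3 these were 6 sites, from 480 to 601 bp, with 16.67% of 84 reads methylated (95% Wilson interval 10.2 to 26.1) and at most 4 reads in any other library. At Tlx1 they were 7 sites, from 10 to 173 bp, with 4.878% of 164 reads (2.49 to 9.33). At F11r they were 3 sites, from 622 to 963 bp, with 77.67% of 103 reads (68.7 to 84.6), in the window whose other fragment read 11%. Camta1 had no such site. Over the genome, 20.2% of the sites with 10 reads in this library reached that number in no other. The same share was 1.52% for WT and 2.70% for KO cells grown in serum, and 12.7% for WT cells in 2i/VitC.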

How the results depend on the processing

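Of 62 window differences under the alternatives, 53 moved by less than their interval and 9 by more, and no called difference changed sign. Windows widened by 500 bp on both sides gave -36.51 points at Tlx1 and -36.03 at Camta1 in 2i/VitC, and -32.81 at Tlx1 in serum. With a minimum of 5 reads, or all sites covered in both libraries of the medium, F11r gave -40.76 points in 2i/VitC, and the latter setting gave -48.51 at Tlx1 in serum. In serum, Brd3 gave -29.16 without its deepest site and -51.36 with 1 site per MspI fragment, and Camta1, not called and at -2.15 points, gave 9.091 from the site left at a minimum of 20 reads. With 1 site per fragment the F11r serum test had an adjusted p of 0.9202 by Fisher's exact test. At a minimum of 20 reads 34 of 60 compared sites were lower by 20 points in 2i/VitC in place of 63 of 106. The count of higher sites was 0 at 30 points, 7 at a minimum of 5 reads and 0 at 20 reads, in place of 1. At the 5′ end of Camta1, the starts of Camta1-012 and Camta1-202 gave -3.289 and -3.632 points in 2i/VitC and 3.985 and 1.253 in serum, and those of Camta1-009 and Camta1-006 gave 1.234 in serum. The causes were not tested. The F11r window at 20 reads could not be computed. With 1 library per condition no replicate error exists. No paired analysis was possible because each group had 1 library.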

Other observations

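At the most upstream starts of genes of the ES cell state, Sox2 read 0.823% to 1.65% and Klf4 1.19% to 2.39% over the libraries. Esrrb had 1 covered site there, which read 56.5% in WT and 81% in KO cells grown in serum and 21.2% and 21.4% in 2i/VitC. Of the 7 genes listed, 3 had sites covered in all libraries. None of the 97 sites tested in serum over this list was called lower or higher by Fisher's exact test on the reads. Over all sites 0.115% and 1.82% were called, so few calls would be met among so few sites.

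Of 166 windows lower by 20 points in 2i/VitC and 43 called lower in serum, 12 were in both sets, 7.23% of the former and 27.9% of the latter. Over all windows, 0.176% were called lower in serum and 0.68% were lower by 20 points in 2i/VitC. Brd3 and Tlx1 are among the 12.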
